A study of Mus musculus with 6 samples.

Results

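The 9 genes described here encode receptors through which macrophages sense chemoattractants. They are the chemokine receptor genes Ccr1, Ccr2, Cxcr4 and Cx3cr1, the atypical receptor gene Ccrl2, the anaphylatoxin receptor genes C5ar1 and C3ar1, and the formyl peptide receptor genes Fpr1 and Fpr2. They were chosen by symbol, and all 9 were found among the 49315 genes of the count table. Wild-type RAW264.7 cells were kept for 24 h in 4 μg/mL SKI-II, a sphingosine kinase inhibitor, or in an equivalent amount of its solvent DMSO, and their RNA was sequenced. Each condition had 3 libraries, numbered 1 to 3. RAW264.7 is an established macrophage-like cell line of mouse origin, so the values describe cells of a single line with no tissue around them. The sample labels number the libraries only. The methods describe the treatment and RNA extraction as those of a qPCR assay done in biological replicates, and state in general that experiments were repeated independently. They do not tie single libraries to separate cultures, so the p-values measure the spread between these libraries.

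Chemoattractant receptors are membrane proteins that couple mainly to Gi proteins, and their activation drives directed migration, integrin activation and, in phagocytes, the oxidative burst. CCR2 is best known for drawing inflammatory monocytes out of the bone marrow towards CCL2, whereas CX3CR1, the receptor for fractalkine, marks patrolling monocytes and many resident macrophages. CXCR4 retains leukocytes in the bone marrow through CXCL12, and C5aR1 and C3aR respond to the complement fragments C5a and C3a. CCRL2 binds chemerin without signalling as a typical chemokine receptor does.

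The libraries held between 12495957 and 20050677 counts. Levels are given as normalized counts, that is, reads scaled by TMM to a library of average size. The quasi-likelihood test of edgeR was run on 12274 genes, and its p-values were adjusted by the Benjamini-Hochberg method over all of them. A gene was called at an adjusted p below 0.05. The markers of the labelled cell type were present, with Csf1r, the receptor for macrophage colony-stimulating factor, at 16895 ± 545 normalized counts (SD, n = 3) in DMSO and Spi1, which encodes PU.1, at 4440 ± 146, while Marco was at 0 in every library. The 9 lymphocyte markers summed to at most 5.70 normalized counts in any library, the 8 fibroblast markers to at most 23.6, and the 8 neutrophil markers to at most 112, nearly all of it S100a8. The neutrophil markers Ly6g and Retnlg, the dendritic cell markers Flt3 and Cd209a, and Ms4a1 of B cells were at 0 throughout. Among the dendritic cell markers, which summed to 69.5 to 102 normalized counts in DMSO and 37.2 to 54.6 in SKI-II, Zbtb46 alone had enough reads for the test. It had a log2 fold change of -0.84 (edgeR adjusted p = 0.0451), and this call was lost without any library other than SKI-II replicate 3 (adjusted p between 0.0801 and 0.151), by DESeq2 (adjusted p = 0.0502) and with no filter on low counts (adjusted p = 0.0513).

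Receptor transcripts differed between SKI-II and DMSO in both directions. The transcripts of Ccr2, C3ar1, Ccr1 and C5ar1 were higher in SKI-II than in DMSO, and those of Cx3cr1 and Cxcr4 were lower. Ccrl2 did not pass the test, and Fpr1 and Fpr2 had almost no reads. Thus 6 of the 7 receptors with enough reads were called, where 38.0% of all tested genes were, with 4 higher (18.4% of all tested genes) and 2 lower (19.7%). All 6 changed by more than 1 on the log2 scale, as did 15.7% of all tested genes, 8.28% upwards and 7.44% downwards. The libraries of both conditions did not overlap for these 6 receptors, 4 with SKI-II above and 2 with SKI-II below. Over all tested genes 50.3% did not overlap, 24.8% with SKI-II above and 25.5% with SKI-II below. A receptor with few reads in DMSO, such as Ccr2, could enter the test only by being higher in SKI-II, so these counts describe the receptors that could be tested.

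**Figure D1:**
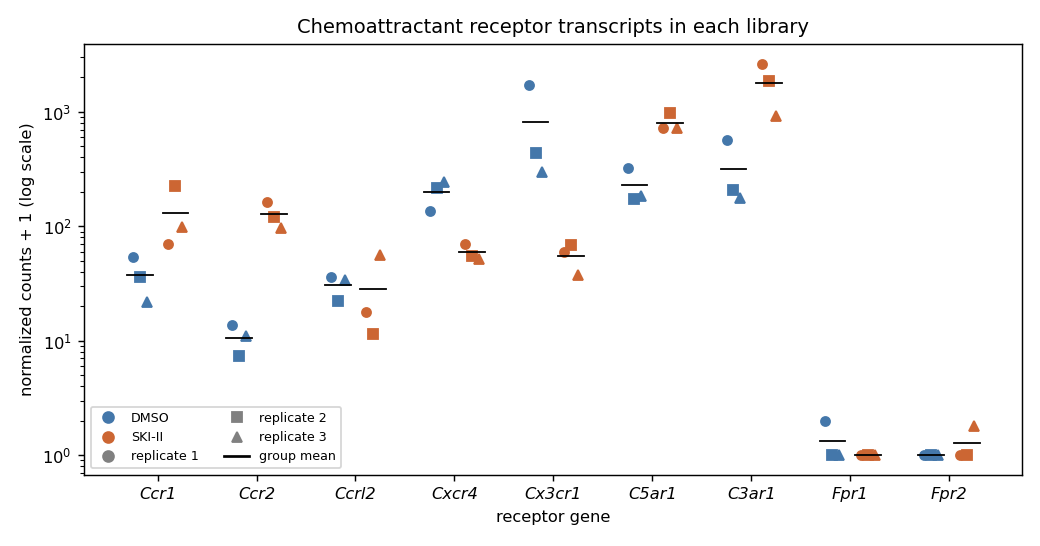
Normalized counts plus 1 (log scale) of the 9 receptor genes (horizontal axis) in each library, with DMSO in blue, SKI-II in orange, a symbol for each replicate number and a black line at the mean of each condition. The libraries of the 2 conditions do not overlap for Ccr1, Ccr2, Cxcr4, Cx3cr1, C5ar1 and C3ar1, whereas Ccrl2 overlaps and Fpr1 and Fpr2 lie at or near 0.

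Promoter sequence from RefSeq is shown for 3 of the changed receptors, 2 that rose and 1 that fell, for which all or nearly all of the 250 bases before the start site lie outside annotated exons. For C3ar1 the 4 bases next to the start site fall in an annotated exon and were left out. Coordinates are of GRCm38.p6, the sequences read 5′ to 3′ on the strand of the gene, which is the minus strand for all 3, and capitals mark a match to a motif searched. C3ar1 (chr6:122856162-122856407) carries TGACTCA, a match to the AP-1 motif TGANTCA, from position -22 relative to the start site. Ccr1 (chr9:123968693-123968942) carries GAGGAA, the PU.1 letters searched, from position -129. Cxcr4 (chr1:128592300-128592549) holds none of the motifs searched.
C3ar1: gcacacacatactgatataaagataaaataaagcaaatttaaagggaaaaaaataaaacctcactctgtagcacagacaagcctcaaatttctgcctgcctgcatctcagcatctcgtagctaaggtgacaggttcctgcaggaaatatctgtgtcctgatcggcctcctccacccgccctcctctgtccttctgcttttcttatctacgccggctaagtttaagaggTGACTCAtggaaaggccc
Ccr1: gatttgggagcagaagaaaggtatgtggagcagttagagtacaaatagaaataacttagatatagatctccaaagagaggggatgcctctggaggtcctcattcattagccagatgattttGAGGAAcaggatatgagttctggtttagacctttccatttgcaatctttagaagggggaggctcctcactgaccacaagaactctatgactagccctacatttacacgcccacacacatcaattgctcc
Cxcr4: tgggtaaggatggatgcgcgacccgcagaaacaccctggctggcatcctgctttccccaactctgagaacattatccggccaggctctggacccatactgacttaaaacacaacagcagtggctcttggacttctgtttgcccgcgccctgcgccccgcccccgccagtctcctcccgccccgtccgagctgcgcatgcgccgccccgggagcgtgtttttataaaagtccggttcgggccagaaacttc

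The motifs were searched on both strands in the 250 bases before and the 50 bases after each RefSeq start. They were GAGGAA (PU.1), TTGCNNAA (C/EBP), TGANTCA (AP-1), TGACNNNGC (antioxidant response element), TGATGNAA (ATF4-CHOP element), CACGTG (E-box) and the NF-kB and interferon elements, and no printed match overlaps another motif. Of 32851 promoters of this length, 28.3% held the PU.1 letters and 7.8% the AP-1 motif. The windows of Ccr2, Cx3cr1, C5ar1 and Fpr1 held none of them. The first of 3 windows of Ccrl2 matched the antioxidant response element, which 12.4% of all promoters did, and that of Fpr2 matched the PU.1 letters. These are matches of letters and say nothing of binding.

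Ccr2, the receptor for CCL2, showed the largest rise of the receptors. Its normalized counts were 12.6, 6.32 and 9.90 in DMSO replicates 1, 2 and 3 and 162, 119 and 96.1 in the SKI-II replicates in the same order. Every SKI-II library therefore lay far above every DMSO library, from a starting level of only 5 to 13 reads. Its log2 fold change was 3.66 (standard error 0.37, edgeR adjusted p = 6.11e-05), a 12.7-fold rise, and it ranked 74th from the top among the 12274 tested genes. With any 1 library left out it stayed between 3.44 and 3.89. The gene lies on chromosome 9 from 124101950 to 124113557 in GRCm38, and 1.91% of the stretches of 50 bases in its transcripts also occur in transcripts of other genes.

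Ccr1, a receptor for CCL3, CCL5, CCL6 and CCL9, rose less evenly. It stood at 53.4, 35.4 and 20.8 normalized counts in DMSO and at 69.4, 225 and 98.6 in SKI-II. The groups did not overlap, but SKI-II replicate 1 was close to DMSO replicate 1, and SKI-II replicate 2 was far above the others. This gave a log2 fold change of 1.84 (standard error 0.47, edgeR adjusted p = 0.0129). Without SKI-II replicate 2 it was 1.204 and the call was lost (adjusted p = 0.0609, within a range of 1.26e-08 to 0.0609 over all alternatives). No stretch of 50 bases in Ccr1 occurs in another gene, and its neighbours and paralogs Ccr1l1 and Ccr3 were at 0 in every library.

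Ccr1 and Ccr2 belong to a cluster of receptor genes on chromosome 9. In the 424 kb before the start of Ccr2, the chemokine receptor genes Ccr9, Cxcr6, Xcr1, Ccr1l1 and Ccr3 had at most 4 reads in any library. Fyco1, an adaptor of vesicle transport that lies among them, had 670, 620 and 444 normalized counts in DMSO against 627, 634 and 551 with SKI-II, with a log2 fold change of 0.06 (edgeR adjusted p = 0.803). Lztfl1, a regulator of ciliary traffic, had a log2 fold change of 0.58 (edgeR adjusted p = 0.0423), a call that was lost without replicate 1 or 2 of DMSO or replicate 2 or 3 of SKI-II (adjusted p between 0.0742 and 0.164) and with no filter on low counts (adjusted p = 0.0509). Cx3cr1 lies on the same chromosome, 4032 kb before Ccr2.

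**Figure D2:**
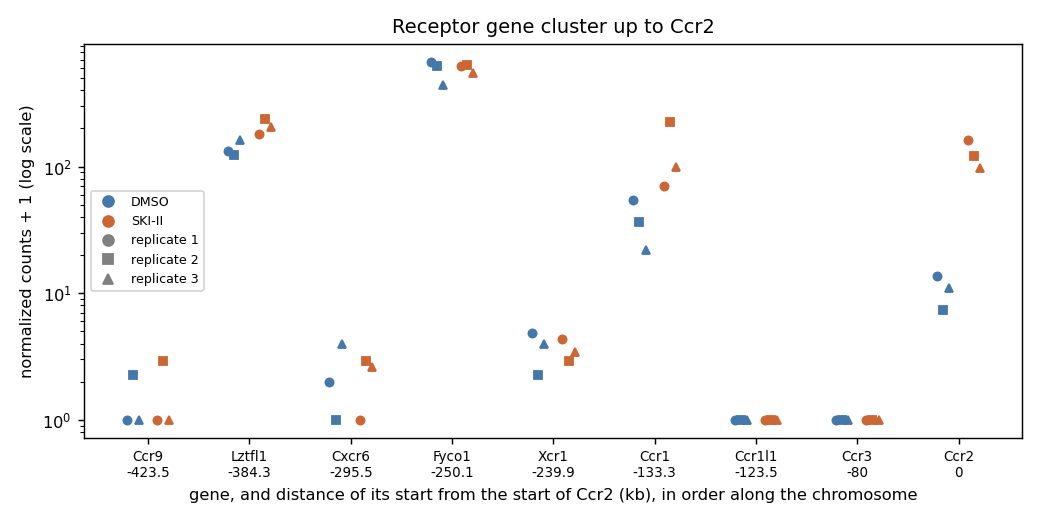
Normalized counts plus 1 (log scale) of the genes of the cluster up to Ccr2, in their order along the chromosome and with the distance in kb of each start from that of Ccr2, in each DMSO (blue) and SKI-II (orange) library. Ccr1 and Ccr2 are higher in SKI-II, Ccr1l1 and Ccr3 are at 0, and Fyco1 has similar values in both conditions.

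Cx3cr1, the fractalkine receptor gene, showed the largest fall. It had 1704, 435 and 295 normalized counts in DMSO replicates 1, 2 and 3, and 58.2, 67.7 and 36.7 in SKI-II. DMSO replicate 1 stood several-fold above the other DMSO libraries, yet the lowest DMSO library still exceeded the highest SKI-II library. The log2 fold change was -3.92 (standard error 0.60, edgeR adjusted p = 0.00111), the 19th lowest of all tested genes, and it was -2.77 without DMSO replicate 1 (adjusted p = 8.51e-05). In bulk RNA, fewer cells carrying a transcript and less transcript per cell cannot be told apart, and this holds for each receptor here. The span annotated for Cx3cr1 covers other genes, of which Gm33858 alone shares exonic bases with it (1.7% of its exon length), and that gene had 2 reads over all 6 libraries.

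DMSO replicate 1 had the highest level of the 3 DMSO libraries for 6 of the 7 tested receptors and the lowest for Cxcr4. Over all genes it did not stand apart, its mean correlation with the other DMSO libraries being 0.981 where the values of replicates 2 and 3 were 0.986 and 0.9805. The part of this library in the receptor differences is shown by the values without it.

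Cxcr4, the CXCL12 receptor gene, fell in a more uniform way. Its normalized counts were 135, 217 and 243 in DMSO against 69.4, 54.4 and 51.3 in SKI-II. The SKI-II libraries lay close together and below all DMSO libraries, of which replicate 1 was the lowest. Its log2 fold change was -1.77 (standard error 0.27, edgeR adjusted p = 0.000843), which lay between -1.998 and -1.595 with any 1 library left out. None of its stretches of 50 bases is shared with another gene.

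Both anaphylatoxin receptor genes rose. C5ar1, whose product senses C5a, had 324, 173 and 184 normalized counts in DMSO against 726, 972 and 718 with SKI-II. The conditions were well separated, with DMSO replicate 1 the highest of the controls. Its log2 fold change was 1.82 (standard error 0.24, edgeR adjusted p = 0.000404). C3ar1, the C3a receptor gene, had 564, 207 and 175 normalized counts in DMSO against 2643, 1858 and 912 with SKI-II. All SKI-II libraries were above all DMSO libraries, with DMSO replicate 1 the highest control and SKI-II replicate 3 the lowest treated library. The log2 fold change was 2.51 (standard error 0.45, edgeR adjusted p = 0.00263), and 3.22 without DMSO replicate 1 (adjusted p = 0.000208). The decoy-like receptor gene C5ar2 had far fewer reads, at 8.37 ± 5.84 normalized counts (SD, n = 3) in DMSO and 17.2 ± 10.2 in SKI-II, and did not pass the test (log2 fold change 0.98, edgeR adjusted p = 0.261). With 1 library left out its log2 fold change ran from 0.52 without SKI-II replicate 1 to 1.68 without DMSO replicate 1 (edgeR adjusted p = 0.644 and 0.108).

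Ccrl2, the atypical chemerin-binding receptor gene, gave no clear difference. It had 34.97, 21.5 and 32.7 normalized counts in DMSO against 16.8, 10.5 and 55.4 with SKI-II. SKI-II replicates 1 and 2 lay below the controls and SKI-II replicate 3 lay above them, so the conditions overlapped. The log2 fold change was -0.09 (edgeR adjusted p = 0.917), with a 95% interval of -1.34 to 1.16 that leaves room for a more than 2-fold change either way. Without SKI-II replicate 3 it was -1.14 (adjusted p = 0.0814, within a range of 0.0814 to 0.985 over all alternatives).

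The formyl peptide receptor genes, which sense bacterial and mitochondrial N-formyl peptides, were hardly transcribed. Fpr1 had 1 read in DMSO replicate 1 and 0 in the other libraries, and Fpr2 had 1 read in SKI-II replicate 3 and 0 elsewhere. A difference between conditions was not detectable at this depth, at which a count of 0 over the 3 libraries of a condition allows up to 3 reads, or 0.0659 CPM (reads scaled to library totals) in DMSO and 0.0588 CPM in SKI-II, for counting error only. Fpr3, Fpr-rs3, Fpr-rs4, Fpr-rs6 and Fpr-rs7 were at 0 in every library. Of the stretches of 50 bases in Fpr2, 31.5% are shared with other genes, so reads of Fpr2 could have been left uncounted.

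**Figure D3:**
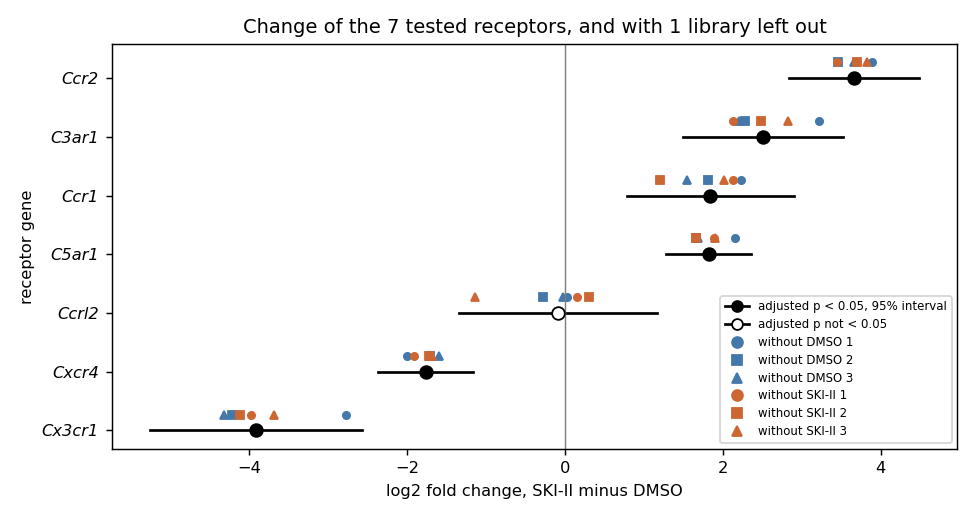
Log2 fold change of SKI-II over DMSO for the 7 tested receptors, with black points and lines for the estimate and its 95% interval (filled where the adjusted p is below 0.05) and coloured symbols for the estimate without each library. Cx3cr1 moves from -3.92 to -2.77 without DMSO replicate 1, Ccr1 from 1.84 to 1.204 without SKI-II replicate 2, and Ccrl2 lies on both sides of 0.

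To compare levels between receptors, counts were divided by exon length and scaled to the same sum in each library (TPM). In DMSO the order of the mean TPM was Cx3cr1 at 39.0 ± 39.5 (SD, n = 3), Cxcr4 at 22.4 ± 4.96, C5ar1 at 18.6 ± 8.29 and C3ar1 at 15.7 ± 11.8, and the ranges of neighbours in this order overlapped. Ccr1 at 2.74 ± 1.42 and Ccrl2 at 2.37 ± 0.63 came next, below C3ar1 in all 3 libraries, and did not differ beyond their spread, and Ccr2 at 0.296 ± 0.111 was below both in every library. The first place of Cx3cr1 rested on DMSO replicate 1, at 84.3 TPM against 16.65 for Cxcr4. That was the only control in which Cx3cr1 was above Cxcr4. In SKI-II the order was C3ar1 at 86.6 ± 44.5, C5ar1 at 63.9 ± 12.3, Ccr1 at 9.42 ± 6.03, Cxcr4 at 6.60 ± 1.36, Ccr2 at 3.82 ± 1.17, Cx3cr1 at 2.47 ± 0.79 and Ccrl2 at 2.11 ± 1.77. The ranges of C3ar1 and C5ar1 overlapped, as did those of Ccr1 and Cxcr4, of Ccr2 and Cx3cr1, and of Cx3cr1 and Ccrl2, whereas C5ar1 was above Ccr1 and Cxcr4 above Ccr2 in all 3 libraries. The summed TPM of the 9 receptors was 166, 74.9 and 62.2 in DMSO against 212, 196 and 116 with SKI-II, so that it was higher in 2 of the SKI-II libraries than in any control and SKI-II replicate 3 lay below DMSO replicate 1.

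The make-up of this sum differed between conditions. C3ar1 and C5ar1 together made up most of it in each SKI-II library, with C3ar1 at 61.2%, 45.1% and 35.4% and C5ar1 at 28.2%, 39.6% and 46.7%. In DMSO, C3ar1 took 17.6%, 13.6% and 12.2%. The share of Cx3cr1 was 50.8%, 27.3% and 19.6% in DMSO and 1.29%, 1.57% and 1.36% in SKI-II, and that of Cxcr4 was 10.02%, 34.0% and 40.2% against 3.83%, 3.15% and 4.74%. The ratio of Ccr2 to Cx3cr1 in TPM was 0.0049, 0.0097 and 0.0224 in DMSO against 1.86, 1.17 and 1.75 with SKI-II. Ccr2 thus went from a small fraction of the Cx3cr1 level in every control to above it in every treated library. This ratio joins the receptors with the largest rise and the largest fall, so it restates those changes and adds no separate result. Its control values rest on 5 to 13 reads of Ccr2 a library.

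**Figure D4:**
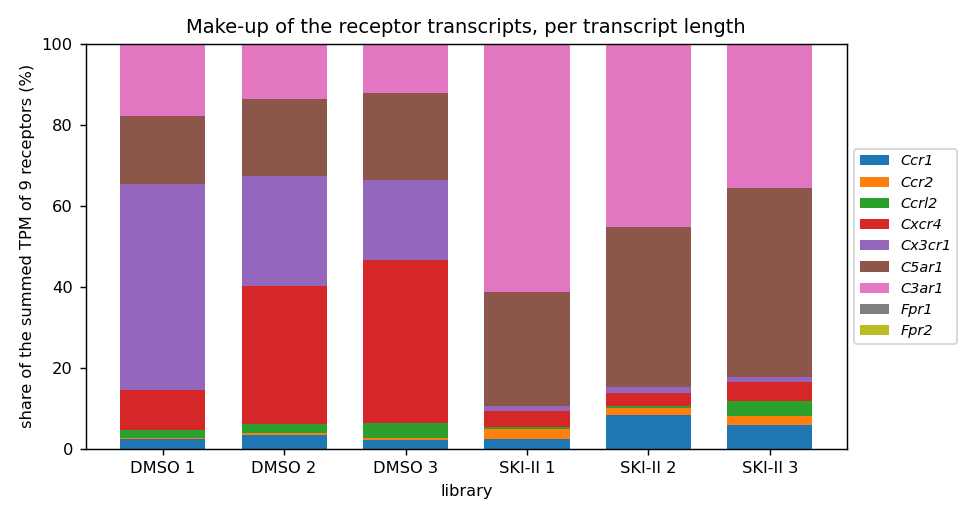
Share in percent of each receptor in the summed TPM of the 9 receptors, as stacked bars from 0 to 100 for each library. Cx3cr1 and Cxcr4 take most of the bar in each DMSO library, and C3ar1 and C5ar1 take most of it in each SKI-II library.

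Of the ligand genes of these receptors, those called were all lower in SKI-II. Of 23 listed ligand genes, 10 had enough reads, 7 were called lower and none higher, against 19.7% and 18.4% of all tested genes (4 were called lower without SKI-II replicate 1), and the median log2 fold change was -0.75 beside 0.0038 over all tested genes. Ccl9, a CCR1 ligand made in quantity by macrophages, fell from 5596 ± 581 normalized counts (SD, n = 3) to 892 ± 420, a log2 fold change of -2.65 (edgeR adjusted p = 0.000244). Ccl6, another CCR1 ligand, fell from 20.3 ± 2.54 to 3.59 ± 2.14, a log2 fold change of -2.41 (edgeR adjusted p = 0.00426). Ccl6 had at most 6 reads in a SKI-II library and entered the test only through its DMSO libraries. Where every library had to reach 10 counts, Ccl6 and Ccl5 were not tested and 5 ligand genes were called lower.

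C3, the precursor of C3a, had a log2 fold change of -1.82 (edgeR adjusted p = 0.0287). It was lost without DMSO replicate 3, where the log2 fold change was -0.93, without SKI-II replicate 1 or 2 (adjusted p between 0.0973 and 0.117 for the 3 libraries) and by DESeq2 (adjusted p = 0.0663), and it was -2.51 without SKI-II replicate 3. Ccl5 had a log2 fold change of -1.71 (edgeR adjusted p = 0.0460), with overlapping conditions, and its call was lost without DMSO replicate 1 or 3 or without SKI-II replicate 1 or 2 (adjusted p between 0.0822 and 0.152). It was -2.92 without SKI-II replicate 3. Ccl3 had a log2 fold change of -0.85 (edgeR adjusted p = 0.0135), lost without SKI-II replicate 1 (adjusted p = 0.0645).

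Mif, which encodes a cytokine that also binds CXCR4, fell by 0.58 on the log2 scale (edgeR adjusted p = 0.00472) and Anxa1, whose product acts on FPR2, by 0.66 (edgeR adjusted p = 0.0106). Ccl2, the main CCR2 ligand gene, had 210, 51.8 and 31.7 normalized counts in DMSO against 60.4, 155 and 39.9 with SKI-II, so its conditions overlapped (log2 fold change -0.21, edgeR adjusted p = 0.829). Its direction rested on single libraries, with a log2 fold change of 1.02 without DMSO replicate 1 and of -0.98 without SKI-II replicate 2 (edgeR adjusted p = 0.172 and 0.348). Ccl4 and App, whose amyloid fragment acts on FPR2, did not pass the test either, with log2 fold changes of -0.47 and -0.09 (edgeR adjusted p = 0.386 and 0.769), and that of Ccl4 was 0.19 without DMSO replicate 1 (adjusted p = 0.627). The log2 fold change of App also turned positive, to 0.16 with replicate 3 of DMSO left out and 0.04 with replicate 1 of SKI-II left out (edgeR adjusted p = 0.544 and 0.918). Saa3 had 5 to 29 counts in DMSO and 4 to 9 in SKI-II and was not tested. Cxcl12, Ccl19, Ccl11, Saa1 and Saa2 were at 0 throughout, and Cx3cl1, which encodes fractalkine, had at most 1 read in a library.

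**Figure D5:**
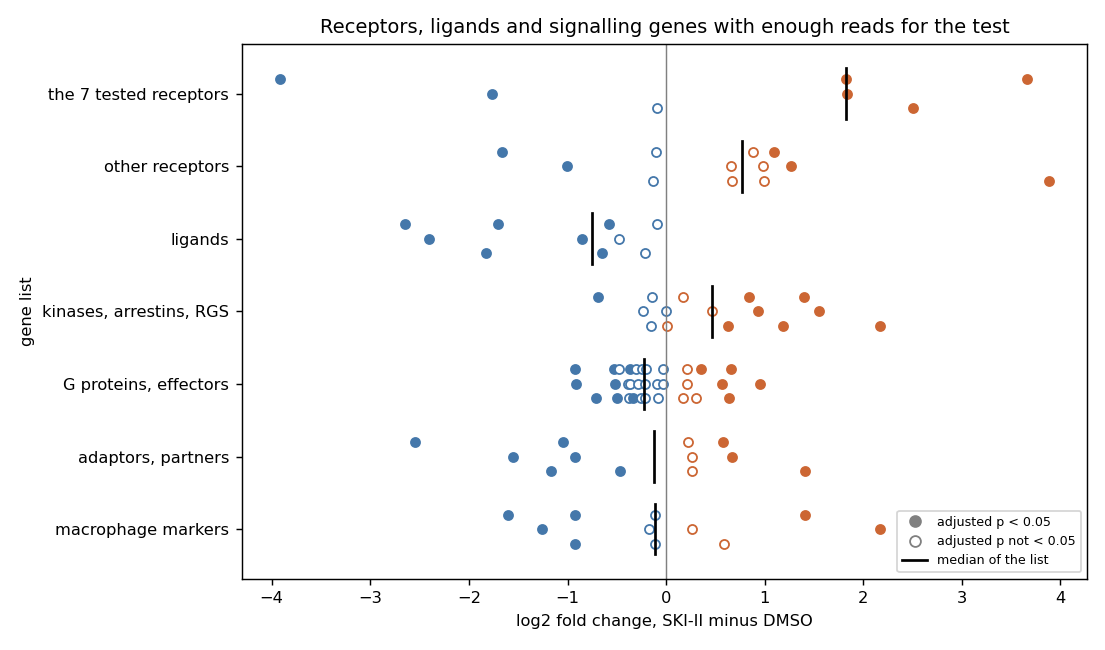
Log2 fold change of SKI-II over DMSO of every gene with enough reads in 7 lists (vertical axis), with filled points for an adjusted p below 0.05 and a black bar at the median of each list. No ligand gene lies to the right of 0, while receptors, kinases and RGS genes lie on both sides.

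Among 41 other chemoattractant receptor genes, 12 had enough reads, of which 3 were called higher and 2 lower, shares near the 18.4% and 19.7% of all tested genes, with a median log2 fold change of 0.77. Without DMSO replicate 1 the counts were 5 and 1, and without SKI-II replicate 1 they were 3 and 1. Gpr84, a receptor for medium-chain fatty acids, rose from 61.9 ± 38.9 normalized counts (SD, n = 3) to 929 ± 482, a log2 fold change of 3.88 (edgeR adjusted p = 0.000362), and of 4.54 without DMSO replicate 1. Ptafr, the receptor gene for platelet-activating factor, and S1pr1, a sphingosine-1-phosphate receptor gene, rose by 1.27 and 1.09 on the log2 scale (edgeR adjusted p = 0.00868 and 0.000320). Gpr183, the receptor gene for oxysterols, fell by 1.66 (edgeR adjusted p = 0.00264). Cysltr1, a receptor gene for cysteinyl leukotrienes, had a log2 fold change of -1.003 (edgeR adjusted p = 0.0208), lost without DMSO replicate 1 (adjusted p = 0.0662) or SKI-II replicate 1 (adjusted p = 0.0782). Of the 41 genes, 14 had no read in any library.

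Of 16 listed receptor kinases, arrestins and RGS proteins, which speed the return of G proteins to rest, 15 had enough reads, 7 were called higher and 1 lower, against 18.4% and 19.7% of all tested genes, with a median log2 fold change of 0.46. The count of 7 fell to 4 without DMSO replicate 2 or SKI-II replicate 1, where Grk4, Rgs12 and Rgs14 were no longer called. Grk4 entered the test only through its SKI-II libraries, and with 10 counts required in each library it was not tested and 6 were called higher. Grk5, a kinase that phosphorylates activated receptors, rose from 230 ± 45.5 normalized counts (SD, n = 3) to 1035 ± 83.0, a log2 fold change of 2.17 (edgeR adjusted p = 1.75e-05). Rgs1 rose by 1.40 (edgeR adjusted p = 0.000194). Grk4, at 5.72 ± 2.56 against 16.9 ± 1.87 normalized counts, had a log2 fold change of 1.55 (edgeR adjusted p = 0.0246) that was lost without DMSO replicate 1 or 2, without SKI-II replicate 1 or 2 (adjusted p between 0.0669 and 0.0944) and by DESeq2 (adjusted p = 0.0776). Grk6 fell by 0.69 (edgeR adjusted p = 0.00597). The arrestin genes Arrb1 and Arrb2 did not pass the test, with log2 fold changes of 0.17 and -0.15 (edgeR adjusted p = 0.422 and 0.400).

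Of 34 listed G protein subunits and effectors, 32 had enough reads, 5 were called higher and 8 lower, none of them with a log2 fold change above 1 or below -1, and the median was -0.23. These shares were close to the 18.4% and 19.7% of all tested genes. Both counts fell to 3 higher and 5 lower without DMSO replicate 2 or SKI-II replicate 1, and to 3 and 4 without SKI-II replicate 2. Itpr2, an intracellular calcium channel gene, and Elmo1, a partner of Dock2 in Rac activation, rose by 0.95 and 0.65 (edgeR adjusted p = 0.00141 and 0.00263). Pik3r6, a subunit gene of phosphoinositide 3-kinase gamma, had a log2 fold change of 0.64 (edgeR adjusted p = 0.0178), lost without replicate 2 of DMSO or replicate 1 or 2 of SKI-II (adjusted p between 0.0507 and 0.0852). Prex1, a Rac activator gene that responds to Gβγ, Itpr1 and Pak1 fell by 0.93, 0.91 and 0.71 (edgeR adjusted p = 0.000391, 0.00207 and 0.00742).

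Of 13 listed adaptors and partners of the receptors, 12 had enough reads, 3 were called higher and 6 lower, against 18.4% and 19.7% of all tested genes, with a median log2 fold change of -0.12. Only 1 was called higher without DMSO replicate 2. Itgb2, the β2 integrin subunit gene that chemoattractants activate for adhesion, fell from 8296 ± 513 normalized counts (SD, n = 3) to 1424 ± 241, a log2 fold change of -2.54 (edgeR adjusted p = 7.52e-06). Nup85, which encodes a nucleoporin also known as the CCR2 adaptor FROUNT, fell by 1.56 (edgeR adjusted p = 0.000524), opposite to Ccr2. The Src-family kinase gene Fgr fell by 1.17 (edgeR adjusted p = 0.00148), and Cd74, a MIF receptor gene, rose by 1.41 (edgeR adjusted p = 0.000684). Src and Jak2 had log2 fold changes of 0.67 and 0.58 (edgeR adjusted p = 0.0323 and 0.0128). The call of Src was lost without DMSO replicate 1 or 2 or SKI-II replicate 1 or 3 (adjusted p between 0.0531 and 0.129), and that of Jak2 without DMSO replicate 2 or SKI-II replicate 2 (adjusted p = 0.0693 and 0.0588).

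Of 12 listed macrophage markers, 11 had enough reads, 2 were called higher and 4 lower, against 18.4% and 19.7% of all tested genes, with a median log2 fold change of -0.12. Adgre1, which encodes F4/80, and Itgam, the CD11b gene, fell by 0.92 and 0.93 (edgeR adjusted p = 0.00451 and 0.00781), and Lyz2 fell by 1.26 (edgeR adjusted p = 0.0172). Mrc1, a mannose receptor gene, had a log2 fold change of -1.605 (edgeR adjusted p = 0.0209), a call that was lost without DMSO replicate 1 or 3 or SKI-II replicate 1 or 2 (adjusted p between 0.0535 and 0.0843). Fcgr1 and Cd14 rose by 2.17 and 1.41 (edgeR adjusted p = 1.56e-05 and 0.000273). Csf1r, Cd68 and Spi1 did not pass the test, with log2 fold changes of -0.12, -0.18 and -0.11 (edgeR adjusted p = 0.536, 0.381 and 0.512). The summed level of the list ranged from 142327 to 207368 normalized counts in DMSO and from 91154 to 129138 in SKI-II, and the part of this shift in the receptor differences was not tested.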

How the data were processed

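The authors prepared libraries from oligo(dT)-enriched RNA with the NEBNext Ultra II kit, trimmed reads with Trimmomatic 0.36, mapped them with STAR 2.5.2b and counted them with featureCounts of Subread 1.5.2, as the labels' processing notes list. The deposited table used here holds raw read counts per Ensembl gene and library, without normalization. The authors' normalized values were not used here, and the authors compared the conditions with DESeq2. Which genome build, annotation and strand setting were used is not given in the sources used here. Reads of a gene and of an antisense gene over it could therefore not be told apart. Names, positions and exon lengths came from GENCODE M21 (GRCm38), which named 48970 of 49315 genes.

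Genes were filtered with edgeR 4.0.16 by condition (minimum count 10, minimum total 15), scaled by TMM and tested by its quasi-likelihood test in R 4.3.3, with 3 libraries per condition and no covariate. The genes tested held 99.9% of the counts of each library. Normalized counts are on the scale of 16042438 counts. Standard errors came from the weights of the fitted model and the moderated dispersion, and 95% intervals from these. TPM used the union of exons. No pair of libraries of a condition was alike within counting noise, as a library deposited again would be (chi-square per degree of freedom 15.4 to 58.1). This check says nothing of how the cultures were kept. Alternatives were DESeq2 1.42.0, limma-voom (limma 3.58.1), other scalings and filters, each library left out, and the replicate number as a block. Programs were tested on simulated data.

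The receptors and all gene lists were chosen with earlier results of these data known. Named genes are the 9 receptors, up to 3 called genes in each direction of each list, ligands averaging 10 or more normalized counts, paralogs that could share reads, macrophage markers and, for the largest rise and fall, the 3 genes with the closest pattern. Other genes named were chosen after their values were seen, and a few listed genes are not reported here. Figures were drawn with matplotlib 3.10.9.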

Additional observations from a re-analysis of the deposited data

How the results depend on the processing

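The counts of receptors called, 4 higher and 2 lower, were the same under DESeq2, limma-voom, RLE scaling, library size alone and no filter. With the replicate number as a block they were again 4 and 2, while the numbers over all genes went from 2255 higher and 2413 lower to 2765 and 2819. For same-numbered libraries the correlations of their deviations from the group means were 0.246, 0.0099 and 0.458. Those of differently numbered libraries ran from -0.462 (DMSO replicate 1 with SKI-II replicate 3) to 0.296 (DMSO replicate 1 with SKI-II replicate 2). The highest value was thus that of the libraries numbered 3. Whether same-numbered libraries were handled together is not given by the labels and was not tested. Among the cluster and pathway genes named in the text, the block changed no call, though over the whole list of G proteins and effectors it raised the count called lower from 8 to 13. With no filter on low counts, 5 in place of 3 other chemoattractant receptors were called higher. Where every library had to reach 10 counts, Ccr2 was not tested, which left 3 receptors called higher. Leaving out each library gave 3 to 4 receptors called higher and 2 lower, the lower number being that without SKI-II replicate 2, where Ccr1 was no longer called. Ccrl2, which was never called, ranged from -1.14 to 0.30 with 1 library left out, and its log2 fold change turned positive without replicate 1 of DMSO (0.03), replicate 1 of SKI-II (0.15) or replicate 2 of SKI-II (0.30). The other 5 called receptors kept their direction and call under each alternative that tested them. Depth limits Fpr1, Fpr2 and the DMSO level of Ccr2, which rests on 5 to 13 reads a library.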

Other observations

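Several transcription factor genes known to act on macrophage receptor genes also differed. Of 22 listed factors, 19 had enough reads, 6 were called higher and 1 lower, with a median log2 fold change of 0.17, against 18.4% and 19.7% of all tested genes. Klf2, a factor that restrains inflammatory gene expression in myeloid cells, was at 84.5, 48.0 and 40.6 normalized counts in DMSO against 999, 1457 and 270 with SKI-II, and its log2 fold change was 3.96 (edgeR adjusted p = 0.000546). SKI-II replicate 3 was the lowest of the treated libraries for Klf2, as it was for Gpr84. Among the tested receptors it was the lowest for C3ar1, C5ar1, Ccr2, Cxcr4 and Cx3cr1, which include those that fell, so this order is not particular to Klf2. Klf4, a factor of monocyte differentiation, rose by 1.38 and Nr1h3, which encodes the oxysterol receptor LXRα, by 1.25 (edgeR adjusted p = 0.000483 and 0.00786). Spi1, Irf8 and Nfe2l2 did not pass the test, with log2 fold changes of -0.11, -0.15 and -0.01 (edgeR adjusted p = 0.512, 0.526 and 0.945).

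Patterns over the 6 libraries were compared by log2 CPM, here with library sizes scaled by TMM and a prior count of 2. The tested genes most like Ccr2 were Sag, Ifi202b and Ocel1, with Pearson r of 0.9994, 0.9986 and 0.9983 across libraries. For Cx3cr1 they were Ccnf, Rbm14 and Aacs, with r of 0.9971, 0.9959 and 0.9950. With 3 libraries against 3 such values are common, since 776 genes had an r above 0.95 with Ccr2 and 281 with Cx3cr1.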
